A study of Mus musculus with 6 samples.

Results

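Zdbf2 and Rasgrf1 are mouse loci known to be imprinted with methylation on the paternal copy, and their DNA methylation was read in haploid lines that hold a paternal genome and in round spermatids. For each gene the window ran from 50 kb upstream of the RefSeq gene start to the gene end. The Zdbf2 window is on chromosome 1 from 63150358 to 63314576 and the Rasgrf1 window on chromosome 9 from 89859508 to 90026979 (mm10, both genes on the plus strand). Of 1456443 cytosine positions with 10 or more reads in any library, 282 lay in these windows, 185 at Zdbf2 and 97 at Rasgrf1. Exons and introns were not assigned, since the gene table used gives only starts and ends.

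The libraries were 3 DKO AG-haESC lines, 2 WT AG-haESC lines and 1 round spermatid sample, all labelled C57BL/6, measured by reduced representation bisulfite sequencing (RRBS) of MspI fragments. AG-haESCs are haploid embryonic stem cells from androgenetic blastocysts, kept on a feeder layer in 2i-supplemented ES medium. Titles of the DKO lines name deletions of the H19 DMR and the IG-DMR, and these lines were at passages 32, 31 and 29 (DKO replicates 1, 2 and 3). WT replicates 1 and 2 were at passages 31 and 18, and round spermatids from testis served as the control. The labels do not say that the lines came from separate embryos, and the spread behind each p-value may therefore be technical.

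In the mouse, imprinted methylation marks one parental copy of a locus in the germ line, and the mark then sets which copy is expressed. Zdbf2 encodes a zinc finger protein expressed from the paternal copy. A long transcript, Liz, begins far upstream of the main Zdbf2 promoter, at a CpG island methylated on the maternal copy, and regions methylated on the paternal copy lie between the start of Liz and the main promoter. Rasgrf1 encodes an exchange factor that activates Ras in neurons, is expressed from the paternal copy in the neonatal brain, and is controlled by a paternally methylated region upstream of the gene, next to a tandem repeat. Whether any position measured here lies in the paternally methylated regions of either locus was not checked.

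RefSeq (GRCm38.p6, the assembly of mm10) gives Zdbf2 starts at 63200358 and 63273269, 72.9 kb apart, and a Rasgrf1 start at 89909775. The sequences around these starts are shown because RRBS fragments begin at MspI sites, and capitals mark CpGs with 10 or more reads in at least 1 library.
Zdbf2, upstream start, chr1:63200108-63200407, plus strand: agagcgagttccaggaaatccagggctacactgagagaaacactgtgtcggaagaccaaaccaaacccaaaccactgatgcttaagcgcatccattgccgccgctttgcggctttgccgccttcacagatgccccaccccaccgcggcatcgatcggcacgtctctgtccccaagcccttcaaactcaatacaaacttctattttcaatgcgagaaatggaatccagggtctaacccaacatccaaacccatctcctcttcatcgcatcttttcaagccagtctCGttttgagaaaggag
Zdbf2, main start, chr1:63273019-63273318, plus strand: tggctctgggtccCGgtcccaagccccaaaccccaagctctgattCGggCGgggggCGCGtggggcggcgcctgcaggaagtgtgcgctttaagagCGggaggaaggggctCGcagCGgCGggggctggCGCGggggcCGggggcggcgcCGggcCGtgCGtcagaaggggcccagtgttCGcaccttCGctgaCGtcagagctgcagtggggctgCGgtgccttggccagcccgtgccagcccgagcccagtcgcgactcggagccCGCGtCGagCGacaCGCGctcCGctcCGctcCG
Rasgrf1 start, chr9:89909525-89909824, plus strand: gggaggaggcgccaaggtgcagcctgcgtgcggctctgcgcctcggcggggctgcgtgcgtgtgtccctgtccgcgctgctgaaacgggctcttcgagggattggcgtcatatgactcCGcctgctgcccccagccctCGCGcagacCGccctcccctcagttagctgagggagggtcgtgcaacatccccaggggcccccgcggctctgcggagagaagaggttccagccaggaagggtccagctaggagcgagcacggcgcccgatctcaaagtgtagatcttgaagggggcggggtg
The MspI site CCGG, which reads alike on both strands, occurs 3 times around the main Zdbf2 start and 0 times in the other 2 sequences. It occurs in 52.8% of the 32851 RefSeq promoter sequences of this length. Around the main Zdbf2 start 28 of 38 CpGs had 10 or more reads in at least 1 library and 21 had them in all 6, against 4 of 26 and 0 around the Rasgrf1 start and 1 of 15 and 0 around the upstream Zdbf2 start. The same sequences gave the context of the measured positions: all 101037 positions with 10 or more reads that fell inside a promoter sequence were CpG cytosines, 50738 on the plus and 50299 on the minus strand. This count leaves out 331 positions at the edge of a sequence.

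Summed over all listed cytosines, the lines had 197728785 to 255726544 reads each and round spermatids 293920118. Promoters of the maternally methylated imprinted genes were read as a check of a paternal genome (1 kb either side of the 5′ end). Of 14 such genes 11 had shared positions, and 10 of them were below 1% in round spermatids, at 0.813% or less. In the lines these 10 genes reached at most 2.74%, at Inpp5f in DKO replicate 2. Low levels in the lines cannot by themselves show a paternal genome. The lines also averaged 20.1% over positions at 80% or more in round spermatids. Peg13, with no strand given and both gene ends read, was at 0% to 19.4% in the lines and 75% in round spermatids. Of 6 germ cell genes 4 were measured and stood at 0.0515% or less in round spermatids, with a mean of 12.9% in the lines, and the 2 measured pluripotency genes, of 4, were at 0.373% or less in the lines. Of 3 feeder fibroblast genes Thy1 alone had shared positions, at 3.11% to 43.0% in the lines and 100% in round spermatids. A share of feeder DNA in the lines was not tested. By the same window rule, H19 held 3 shared positions at 80% or more in round spermatids, with means of 5.14%, 22.8% and 8.89% in DKO replicates 1, 2 and 3 and of 10.1% and 5.35% in WT replicates 1 and 2. Meg3 held 2, at 26.4%, 37.4% and 9.68% in the DKO lines and 7.41% and 6.96% in the WT lines. Whether these positions lie in the deleted elements was not checked.

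Coverage of both windows was patchy and mostly not shared between libraries. At Zdbf2 54 of 185 positions had 10 or more reads in all 6 libraries and 78 in a single one. At Rasgrf1 14 of 97 did in all 6 and 72 in a single one. Positions read in a single library were nearly all or none methylated: at Zdbf2 60 stood at 0%, 13 at 100% and 5 between, and at Rasgrf1 49, 19 and 4. Over the genome 76.1% of such positions were at 0%, 18.02% at 100% and 5.92% between, while 28.7% of values at positions shared by all 6 libraries lay between. Whether the PCR-amplified reads of a position came from separate molecules was not tested, and intervals and limits given here cover counting error only.

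Upstream of Rasgrf1 no round spermatid position with 10 or more reads lay between 89859710 and 89885887, a stretch of 26.2 kb in which the lines had 6 positions, 4 of them in 1 line each. A further stretch of 23.4 kb, from 89885887 to 89909325, was also empty in round spermatids. Inside Rasgrf1 the longest such stretch measured 71.2 kb. At Zdbf2 the longest measured 23.4 kb upstream of the gene (63177045 to 63200437) and, inside it, 34.1 kb (63273709 to 63307851) and 20.3 kb (63241193 to 63261451). Of the 5 round spermatid positions upstream of Rasgrf1, 2 lay at the far edge of the window, 2 next to the gene start and 1, at 89885887, between them.

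**Figure D1:**
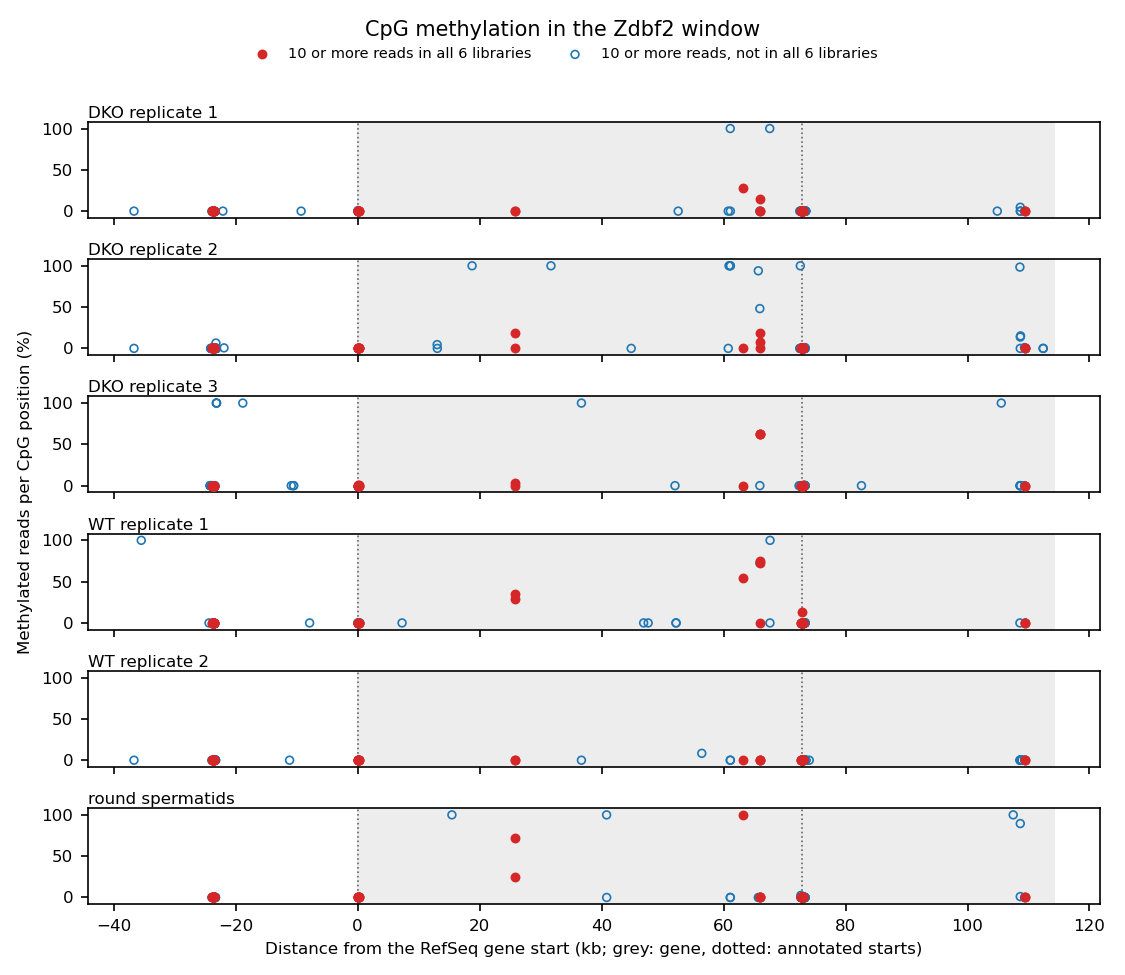
Percentage of methylated reads at every CpG position with 10 or more reads in the Zdbf2 window, by distance in kb from the RefSeq gene start, with a panel for each library (filled points: positions read in all 6 libraries; open points: the rest). Filled points of the CpG clusters at both starts and at -23.8 kb lie near 0%, apart from 13.4% at 1 position of the main start in WT replicate 1. Of the 7 shared positions that exceed 10% in any library, 6 lie between the starts.

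At positions shared by all 6 libraries, the 3 CpG clusters of the Zdbf2 window next to annotated gene starts were close to unmethylated. This held in the lines and in round spermatids, with 1 exception in WT replicate 1. The cluster inside Ndufs1, which encodes a subunit of respiratory complex I, next to the start of Eef1b2, which encodes a translation elongation factor subunit, lies at -23.8 kb from the Zdbf2 gene start. Its 14 shared positions (63176549 to 63176793, 89 to 2836 reads) reached at most 0.451% in the lines and 0.201% in round spermatids. At the upstream Zdbf2 start, taken here as that of Liz, 9 shared positions from 63200437 to 63200558 reached at most 0.827% in the lines and 0.649% in round spermatids. At the main start 23 shared positions ran from 63273116 to 63273331, over the sequence printed above and the 13 bases after it. They averaged 0.0231%, 0.0316% and 0.0266% in the DKO lines (replicates 1 to 3) and 0.608% and 0.0230% in the WT lines (replicates 1 and 2), against 0.0167% in round spermatids.

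A single shared CpG at the main start departed from this. At 63273178 the DKO lines had 0 of 1049, 0 of 812 and 1 of 2264 methylated reads and the WT lines 110 of 820 (13.4%) and 1 of 966 (0.104%), against 1 of 2432 (0.0411%) in round spermatids. WT replicate 1 alone was raised there, and its reads at the neighbouring positions 63273174 and 63273199 were all unmethylated (0 of 819 and 0 of 820). In the 3′ part of the gene, at 63309803 and 63309824, 109 kb from the gene start, the lines reached at most 0.407% and round spermatids stood at 0%.

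Between the starts, round spermatids were methylated at positions where most lines were not. At 63263509, 63.2 kb from the gene start, DKO replicate 1 had 144 of 518 methylated reads (27.8%), DKO replicate 2 had 0 of 49 and DKO replicate 3 had 0 of 174. WT replicate 1 had 309 of 562 (55.0%, Wilson 95% interval 50.8% to 59.0%), WT replicate 2 had 0 of 287, and round spermatids had 227 of 227 (100%, 98.3% to 100%). The counts of 0 allow levels of up to 6.12% in DKO replicate 2, 1.72% in DKO replicate 3 and 1.05% in WT replicate 2. All 5 lines lay below round spermatids, and their mean of 16.6% ± 24.6 (SD, n = 5) differed from round spermatids by -83.4 percentage points.

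The pair of positions 25.8 kb from the gene start was partly methylated in round spermatids. At 63226192 the DKO lines had 0 of 120, 0 of 116 and 0 of 118 methylated reads and the WT lines 23 of 80 (28.8%) and 0 of 58, against 78 of 109 (71.6%, 62.5% to 79.2%) in round spermatids. All lines lay below round spermatids at this position. At 63226225, 33 bases on, the DKO lines stood at 0%, 18.2% and 3.69% and the WT lines at 34.5% and 0%, against 25.2% (20.8% to 30.3%) in round spermatids, so WT replicate 1 lay above the control and the values overlapped. At 63309010, near the 3′ end, WT replicate 1 had no reads. There DKO replicates 1, 2 and 3 were at 4.67%, 13.7% and 0%, WT replicate 2 at 0.250% and round spermatids at 89.5% (86.9% to 91.6%).

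Other positions between the starts were unmethylated in round spermatids and methylated in some lines. At 63266316, 63266333 and 63266340 round spermatids had 0 of 1068 reads each, which allows up to 0.281%. At the first of them the DKO lines stood at 0%, 8.19% and 62.0% and the WT lines at 74.7% and 0%. At the second, 17 bases on, DKO replicate 3 was at 62.3% and the other 4 lines at 0%. At 63266340 the DKO lines stood at 15.2%, 18.5% and 62.3% and the WT lines at 72.5% and 0%. WT replicate 2 was thus at 0% at all 3, and methylation differed between CpGs read by equal numbers of reads: WT replicate 1 had 91 reads at each, of which 68, 0 and 66 were methylated.

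A second such place was read in fewer libraries. At 63261451 and 63261472 DKO replicate 1 had 58 of 58 and 0 of 58 methylated reads, DKO replicate 2 had 97 of 97 at both, WT replicate 2 had 0 of 16 at both and round spermatids had 0 of 126 at both. At 63266305 DKO replicates 1, 2 and 3 were at 0%, 48.2% and 0%, WT replicate 1 at 72.5% and round spermatids at 0% (0 of 63 reads). All lines thus lay below round spermatids at 63263509. At the positions named on both sides of it, some lines lay above round spermatids and the other lines read there were at 0% as well.

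**Figure D2:**
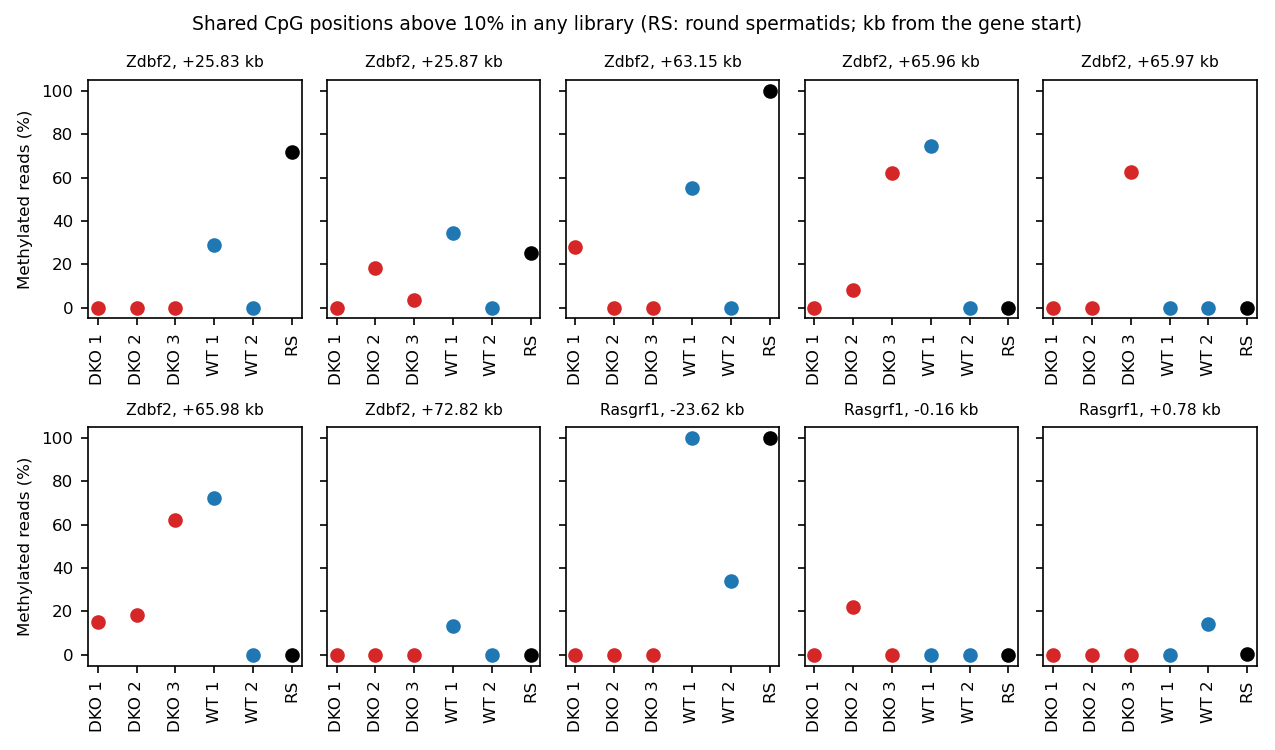
Percentage of methylated reads by library at the 10 positions of both windows that had 10 or more reads in all 6 libraries and exceeded 10% in any of them (red: DKO lines, blue: WT lines, black: round spermatids; panel titles give kb from the gene start). Round spermatids stand at 100% at 63.15 kb in Zdbf2 and at -23.62 kb in Rasgrf1, and at 0% at the 3 Zdbf2 positions near 66 kb, where WT replicate 1 or DKO replicate 3 is highest.

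At Rasgrf1 a single shared position, upstream of the gene, was methylated in round spermatids. This CpG lies at 89885887, 23.6 kb upstream of the gene start, in no annotated gene. Whether this CpG is part of the control region was not checked. DKO replicates 1, 2 and 3 had 0 of 61, 0 of 44 and 0 of 49 methylated reads there, WT replicate 1 had 27 of 27 (100%, 87.5% to 100%), WT replicate 2 had 61 of 180 (33.9%, 27.4% to 41.1%) and round spermatids had 362 of 362 (100%, 98.9% to 100%). At this CpG the DKO lines, which allow up to 4.92%, 6.82% and 6.12%, lay below both WT lines. WT replicate 1 stood at the level of round spermatids there. Among the neighbouring positions read in fewer libraries, 1 was high in WT replicate 1 as well and 1 was high in a DKO line. At 89885821, 66 bases before it, WT replicate 1 had 413 of 413 methylated reads, while DKO replicates 1 and 2 had 0 of 707 and 0 of 154 and WT replicate 2 had 0 of 565. At 89885782 DKO replicate 1 had 366 of 366 and WT replicates 1 and 2 had 0 of 413 and 0 of 152. WT replicate 2 alone had 10 or more reads at 89885886 and 89885915, with 0 of 12 methylated at each. Farther upstream, at 89879925, WT replicate 1 had 0 of 318 methylated reads, and no other library was read there.

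The start of Rasgrf1 was close to unmethylated. Its 13 shared positions lie from 89909325 to 89910417, on both sides of the sequence printed above, whose own CpGs were read in WT replicate 2 alone. Round spermatids reached at most 0.218% there. Each raised value belonged to a single line: 57 of 258 reads (22.1%) in DKO replicate 2 at 89909345, 8 of 199 (4.02%) in DKO replicate 3 at 89910283, 18 of 573 (3.14%) in WT replicate 1 at 89910264, 65 of 463 (14.04%) in WT replicate 2 at 89910288 and 1 of 89 (1.12%) in WT replicate 2 at 89909325. The other shared positions, 8 of 13, were below 1% in every library.

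**Figure D3:**
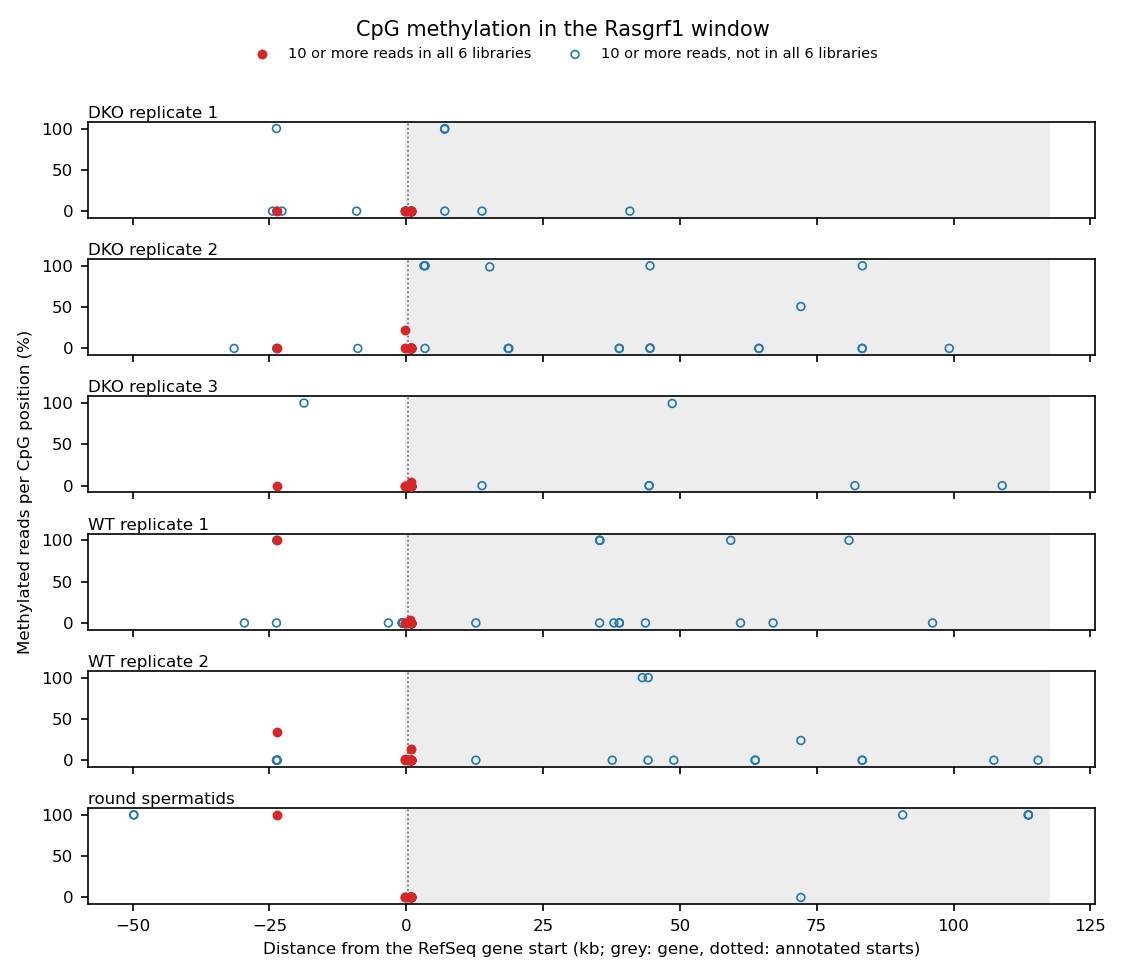
Percentage of methylated reads at every CpG position with 10 or more reads in the Rasgrf1 window, by distance in kb from the RefSeq gene start, with a panel for each library (filled points: positions read in all 6 libraries; open points: the rest). Round spermatids and WT replicate 1 stand at 100% at the shared position 23.6 kb upstream, WT replicate 2 at 33.9% and the DKO lines at 0%.

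The lines were compared with round spermatids over the positions shared by all 6 libraries. With 1 round spermatid library no test over samples was made. At Zdbf2 the means were 0.827%, 0.868% and 3.56% in DKO replicates 1, 2 and 3 and 5.18% and 0.0403% in WT replicates 1 and 2, against 3.68% in round spermatids. The mean difference of -1.59 ± 2.18 percentage points (SD, n = 5) was smaller than the spread of the lines, and was -3.67 points without WT replicate 1 and -0.504 without WT replicate 2. Pooling reads over positions turned its sign, to 0.171 points. Without position 63263509 it was -0.0412 points. At Rasgrf1 the means were 0%, 1.58% and 0.287% in the DKO lines and 7.37% and 3.52% in the WT lines, against 7.16% in round spermatids, a difference of -4.61 ± 3.03 points (SD, n = 5). Without position 89885887 it was 0.670 points.

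Position by position, a loss was called where the mean of the lines was at least 25 points below round spermatids and every line was below them. Of all 233019 shared positions, 21.2% met this rule. At the 2 loci 2 of 68 did, 63226192 and 63263509, both at Zdbf2. A position under 25% in round spermatids cannot meet the rule. Shared positions below 10% in round spermatids numbered 51 of 54 at Zdbf2 and 13 of 14 at Rasgrf1. The count of 2 therefore cannot be read as less loss at these loci than over the genome. Position 89885887 of Rasgrf1 did not meet the rule, since WT replicate 1 stood at 100%. Without that line 4 of 72 shared positions met it. They included 89885887 and also 63309010, which became shared because WT replicate 1 had no reads there. The opposite rule, lines higher by 25 points and every line above, was met by 0.335% of all positions and by 0 of the 68.

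Where round spermatids were at 80% or more, the mean of the 5 lines at these loci lay between the quartiles of such means across the genome. Single lines ranged from 0% to 77.5%. These are means of 2 positions each, so their range cannot be set against means over many positions or over 5 lines. There were 2 such shared positions, 63263509 and 89885887, with means of 13.9%, 0% and 0% in DKO replicates 1, 2 and 3 and 77.5% and 16.9% in WT replicates 1 and 2. Across the 47753 such positions of the genome the means were 17.6%, 24.5% and 17.4% in the DKO lines and 26.9% and 14.2% in the WT lines. The mean of the lines over the 2 positions was 21.7% ± 32.2 (SD, n = 5), against 20.1% over all, where the quartiles were 7.25% and 29.5%. Without WT replicate 1 the mean was 6.70%, over 3 positions, with 63309010 added. Any line was at 50% or more at both positions in the single case of WT replicate 1. Across the genome 54.4% of such positions had no line at 50% or more, 26.5% had 1 line and 0.404% had all 5.

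**Figure D4:**
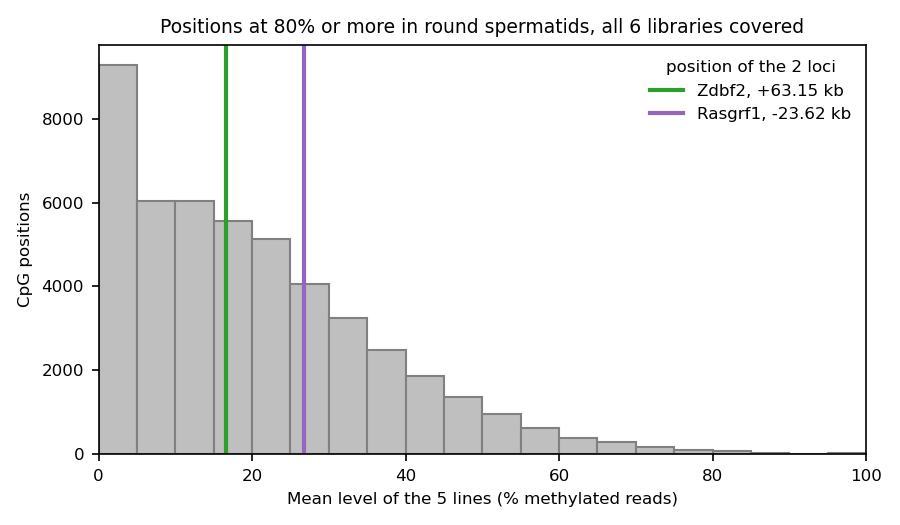
Number of CpG positions by the mean level of the 5 lines, in 5-point bins, for the 47753 positions at 80% or more in round spermatids and read in all 6 libraries. The lines mark the Zdbf2 position 63.15 kb from the gene start, at 16.6%, and the Rasgrf1 position at -23.62 kb, at 26.8%, both between the quartiles of 7.25% and 29.5%.

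Pair by pair, each line shared more positions with round spermatids than all 6 libraries did, except DKO replicate 1 at Rasgrf1, with 14. At Zdbf2 DKO replicates 1, 2 and 3 shared 67, 75 and 74 positions and WT replicates 1 and 2 shared 64 and 74. Positions at 80% or more in round spermatids numbered 2 in each pair, and 1 in the pair with WT replicate 1. None (0) was at 80% or more in any line. At Rasgrf1 each pair had 1 such position, and WT replicate 1 was the single line at 80% or more. Across the genome 6.10%, 7.77% and 7.21% of such positions were at 80% or more in DKO replicates 1, 2 and 3 and 10.3% and 4.16% in WT replicates 1 and 2, while between 53.5% and 74.0% were below 20%. In the reverse direction, Zdbf2 positions with under 10% in spermatids that reached 50% in the line numbered 1 of 63, 3 of 71 and 3 of 70 in the DKO lines and 3 of 61 and 0 of 70 in the WT lines. At Rasgrf1 there was 1 of 15, in DKO replicate 2, and 0 in the other 4 lines. Over all positions the share was 0.9995%, 1.38% and 1.08% in the DKO lines and 1.80% and 0.695% in the WT lines. Mean differences from round spermatids had both signs. At Zdbf2 they were -2.13, 1.53 and -1.31 points in DKO replicates 1, 2 and 3 and 2.40 and -3.87 points in WT replicates 1 and 2. At Rasgrf1 they were -7.16, -1.71 and -6.41 points in the DKO lines and 0.195 and -1.69 points in the WT lines.

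DKO lines were not shown to differ from WT lines at either locus. Over the positions shared by the 5 lines, Zdbf2 averaged 1.75% ± 1.57 (SD, n = 3) in DKO lines and 2.61% ± 3.63 (SD, n = 2) in WT lines, a difference of -0.859 points (two-sided exact permutation test, p = 0.7). The sign turned with reads pooled over positions (0.219 points), without DKO replicate 1 (0.440 points) and without WT replicate 1 (1.75 points). Rasgrf1 averaged 0.622% ± 0.841 (SD, n = 3) in DKO lines and 5.44% ± 2.72 (SD, n = 2) in WT lines, a difference of -4.82 points (exact permutation test, p = 0.1), and the groups did not overlap. With reads pooled over positions it was -1.12 points (exact permutation test, p = 0.3). With 3 against 2 lines 0.1 is the smallest p this test can give. Without position 89885887 the difference was -0.0428 points (exact permutation test, p = 1).

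Single positions were tested with the quasi-likelihood test of edgeR over the genome. It called 0 of 171690 positions at an adjusted p under 0.05 (0.0%) and gave 3407 (1.98%) an unadjusted p under 0.05. The lowest adjusted p of this edgeR test was 0.968, at a common dispersion of 1.81. Its 0 calls therefore cannot show that DKO and WT lines are alike. Of 38 positions tested at the 2 loci the edgeR test called 0, with 1 at an unadjusted p under 0.05. That position was 89885887, where DKO lines lay 66.9 points below WT lines, lower in 3 of 3 lines, with an unadjusted p of 0.0341 and an adjusted p of 0.968. limma, on the arcsine square root of the level, called 242 positions over the genome and 0 at these loci. Of the 68 positions read in the 5 lines, 3 had every DKO value below both WT values: 63273178, 89885887 and 89910264. Over all positions 3.7% were lower in DKO lines without overlap and 2.54% higher, and 0 of the 68 were higher. A gap of at least 25 points without overlap, lower in DKO lines, was found at 1 of the 68, 89885887, and at 1.66% of all positions, and the reverse at 0 of the 68 and 1.11% of all. At 63273178 and 89910264 WT replicate 2 stood at 0.104% and 0.218%, close to the DKO lines.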

How the data were processed

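The 6 deposited files, 1 per library, list for each cytosine position the authors' count of methylated reads, their count of unmethylated reads and the methylated fraction, which matched the counts within 1e-09 at every position. Per the labels' protocols the assay used MspI digestion, adapter ligation, gel size selection, bisulfite treatment and PCR. Bismark 0.12.2 and mm10 come from the submitters' processing notes. For trimming and duplicate removal, the sources used here give nothing.

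Positions under 10 reads in a compared library were left out, and comparisons used shared positions. Intervals are Wilson 95% intervals, and a count of 0 allows 3 reads of the total. Locus means weighted positions equally and were compared between DKO and WT lines by two-sided exact permutation tests. edgeR 4.0.16 (R 4.3.3) tested positions with 10 or more reads in the 5 lines that were not the same in all of them, with a term per library, a group by methylation term, a common dispersion and Benjamini-Hochberg adjustment. limma 3.58.1 was an alternative. Gene positions and promoter sequences are RefSeq GRCm38.p6. The strand of H19 was taken from general knowledge.

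By rule the text names positions read in all 6 libraries (the 6 largest and 6 smallest differences between lines and round spermatids), upstream positions read in round spermatids and a line, and the 3 largest differences per locus without overlap between DKO and WT lines. Other positions were named after their values were seen. Members, lists and rules were chosen with earlier results of these data known.

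WT replicate 1 and DKO replicate 2 carry OG3 in their titles, and WT replicate 2 and DKO replicate 3 carry AGH-2. The difference between the WT lines and that between DKO replicates 2 and 3 correlated over 264362 positions with r = 0.0622. The main tests did not take the names as pairs, though a low correlation cannot show that lines sharing a name are unrelated.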

Additional observations from a re-analysis of the deposited data

Results flagged for a closer look

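Among the 5 lines a value was marked where its gap to the nearest line exceeded 0.71 of the whole range, with a stricter limit where 4 lines were read. Chance marks about 1 in 20 groups, and a group with all other lines at 0 is marked by any methylated read in the remaining one. Of 44 groups looked at, 15 were marked. The groups did not cover all positions of the windows, and at nearly all marked positions the other lines were all at 0%. The count therefore cannot be set against 1 in 20. Between the Zdbf2 starts they were WT replicate 1 with 28.8% at 63226192 and DKO replicate 3 with 62.3% at 63266333, and at the main start WT replicate 1 with 13.4% at 63273178. Near the 3′ end of Zdbf2 DKO replicate 2 stood apart with 98.4% at 63308950 and 15.1% at 63309056, both read in 4 lines. In the cluster inside Ndufs1 the marked values were 0.0806%, 0.405% and 0.234% in WT replicate 2 at 63176549, 63176656 and 63176787, and 0.0852% in DKO replicate 3 at 63176771.

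Upstream of Rasgrf1 WT replicate 1 stood apart with 100% at 89885821, read in 4 lines. At the Rasgrf1 start the marked values were 1.12% in WT replicate 2 at 89909325, 22.1% in DKO replicate 2 at 89909345, 3.14% in WT replicate 1 at 89910264, 4.02% in DKO replicate 3 at 89910283 and 14.04% in WT replicate 2 at 89910288. At the 15 positions the other lines stood between 0% and 0.218%. What made 1 line stand apart at each was not tested.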

How the results depend on the processing

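Of 88 values under alternatives to 8 results, 81 did not turn direction and 59 stayed within 1.5 times the reported value. Pooling reads over positions in place of equal weights turned the sign at Zdbf2, to 0.171 points for lines minus round spermatids and to 0.219 points for DKO minus WT. Lines minus round spermatids was 0.00165 points in the 50 kb upstream of Zdbf2 alone, and at Rasgrf1 -22.9 points in the 50 kb upstream alone, 0.370 points in the gene alone and 0.670 points without the position at 80% or more in round spermatids, the last chosen after seeing the data. Leaving out each line in turn gave -3.67 to -0.504 points (Zdbf2) and -5.81 to -3.71 points (Rasgrf1) for lines minus round spermatids, and -4.39 to 1.75 and -7.68 to -2.90 points for DKO minus WT. The number of positions lower in the lines then ranged from 2 to 4, and the level of the lines at positions at 80% or more in round spermatids from 6.70% to 27.1%. For DKO against WT over the genome, limma called 242 positions, edgeR called 2 with a replicate block for the shared line names and 0 to 1 with a line left out, and 0 positions at the loci in each case. With the replicate block, DKO minus WT was -0.396 points at Zdbf2 and -4.51 points at Rasgrf1 (2 pairs, exact sign-flip permutation p = 1 and 0.5). The cause of these shifts was not tested. Depth limits the DKO lines at 89885887 to between 44 and 61 reads and WT replicate 1 to 27.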

Other observations

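Positions with 10 or more reads in round spermatids and in no line entered no comparison. At Zdbf2 they included 63215813 (77 of 77 reads methylated), 63241178 (34 of 34, next to 0 of 34 at 63241193) and 63307851 (174 of 174). At Rasgrf1 all 6 were at 100%: 89859702 and 89859710 with 149 reads each, 90000222 with 10, and 90023169, 90023184 and 90023191 with 351 each. Of the positions at 80% or more in round spermatids, 3 of 5 at Zdbf2 and 6 of 7 at Rasgrf1 were read in no line.

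Some line positions entered few or no comparisons. Before the main Zdbf2 start, DKO replicate 2 had 11 of 11 methylated reads at 63272945, where the other libraries had 0 reads. Inside Eef1b2, DKO replicate 3 had 27 of 27 methylated reads at 63177196 and 63177208, where DKO replicate 2 had 0 of 48. Inside Rasgrf1, DKO replicate 2 was at 50.7% and WT replicate 2 at 23.9% at 89981612, where round spermatids had 0 of 129 methylated reads. That position entered the pair by pair counts alone. Positions at 80% or more, of all positions with 10 or more reads in the library, numbered 2 of 86, 8 of 113 and 6 of 96 at Zdbf2 in DKO replicates 1, 2 and 3, 2 of 82 and 0 of 99 in WT replicates 1 and 2, and 5 of 91 in round spermatids. At Rasgrf1 they numbered 3 of 29, 5 of 36 and 2 of 22 in the DKO lines, 7 of 39 and 2 of 37 in the WT lines, and 7 of 22 in round spermatids. These counts rest on different positions in each library and were not tested.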
